A study of Saccharomyces cerevisiae with 9 samples.

Results

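The comparison described here set yeast carrying CTH2 on a plasmid directly against yeast carrying CTH1 on the same plasmid. Its members were chosen by sample title, as the 3 arrays labelled cth1CTH2 and the 3 labelled CTH1cth2, which are 6 of the 9 arrays of the series. All strains were Saccharomyces cerevisiae cth1cth2 double deletants, which lack both chromosomal genes. The CTH2 group carried pRS416-CTH2, the CTH1 group carried pRS416-CTH1, and the remaining 3 arrays came from the same deletant with pRS416 alone, called vector below. All 9 cultures grew in synthetic medium without uracil, which selects for the URA3 marker of the plasmid, and all contained 100 µM BPS (bathophenanthroline disulfonate), a chelator that withholds iron. Growth lasted about 6 h at 30 °C, to exponential phase, so that no iron-replete culture, no wild-type strain and no strain with both genes was part of the design. The labels speak of growth in triplicate without saying whether the replicates were separate transformants, and p-values measure only the spread between these cultures. The carried genes' promoters are not stated in the labels.

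Cth1 and Cth2 are paralogous RNA-binding proteins with a pair of CCCH zinc fingers, of the family of mammalian tristetraprolin. They bind AU-rich elements in messenger RNAs, mostly of iron-using proteins of respiration, the TCA cycle and heme and lipid synthesis, and promote the decay of those transcripts when iron is scarce. The transcription factors Aft1 and Aft2, which switch on iron uptake in the same conditions, also induce CTH2. The comparison addresses what sets the effects of the paralogues apart when each is the only one present.

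Transcript levels came from Affymetrix S98 yeast arrays, and the deposited values are MAS5 signals, a linear probe-set brightness. Differences below are CTH2 minus CTH1 means of log2 signal, where 1 stands for a doubling, with their standard error (SE) and 95% interval. They were tested for 4537 genes with limma, in 1 model over all 9 arrays, and a gene was called at a Benjamini-Hochberg adjusted p under 0.05. The trimmed mean signal lay between 500.4 and 500.6 on every array, so all arrays had been scaled alike, and array medians ran between 153 and 184. The MATa-specific pheromone receptor gene STE2 had signals of 427 to 573 over the 9 arrays, and the MATalpha-specific receptor gene STE3 had 70.2 to 112. Other MATa-specific genes had 175 to 1347 (MFA1), 243 to 2046 (MFA2), 302 to 585 (BAR1), 80.9 to 204 (AGA2) and 96.9 to 264 (STE6). Other MATalpha-specific genes had 41.2 to 103 (MF(ALPHA)1), 65.2 to 134 (MF(ALPHA)2) and 100.3 to 205 (SAG1). AGA2 and STE6 thus overlapped SAG1.

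CTH2 itself was the only gene called between the groups, which is 0.022% of the genes tested. Its probe set, listed in the annotation under the standard name TIS11 (YLR136C), had signals of 3801, 3389 and 4498 on the CTH2 arrays. On the CTH1 arrays it had 6.79, 10.2 and 1.81, and on the vector arrays 0.878, 5.9 and 5.56. The CTH2 arrays all lay far above the signal floor of 43.2 used for the test, and the arrays of both other groups lay below it. TIS11 was thus at least 89.6-fold higher on the CTH2 arrays, the mean of which is set against that floor (limma adjusted p = 9.8e-10).

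CTH1 (YDR151C) showed the opposite pattern. Its signals were 1.54, 3.2 and 14.3 on the CTH2 arrays, and 231, 592 and 288 on the CTH1 arrays, with 0.58 to 1.21 on the vector arrays. CTH1 was at least 7.88-fold lower on the CTH2 arrays, again against the floor. Its mean over the 9 arrays was too dim for the 4537 genes tested. With no filter on dim genes its fitted difference of -2.98 was called (limma adjusted p = 0.032). Each strain therefore held the transcript its label names, and neither paralogue's signal rose above the floor in the strain carrying the other. Brightness cannot be set against brightness between probe sets, so how many transcripts of the carried gene each strain held is not known from these arrays. Effects of the paralogue and of its dose cannot be told apart in any difference below. Within the CTH1 group the second replicate had the highest CTH1 signal, and that array had the lowest weight of the 6 when arrays were weighted by their scatter.

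**Figure D1:**
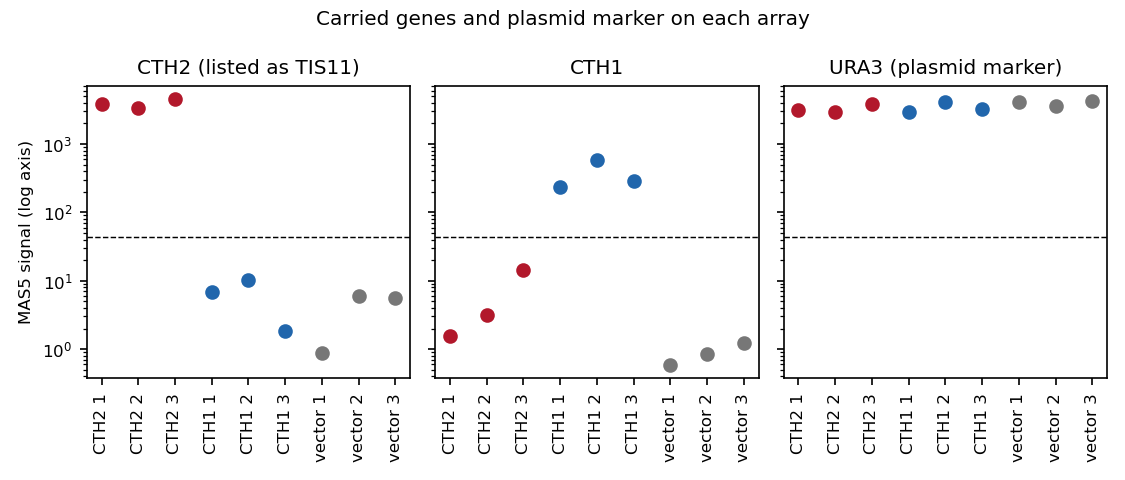
MAS5 signal (log axis) of the probe sets for CTH2 (listed as TIS11), CTH1 and URA3 on each of the 9 arrays, with the 3 CTH2 arrays left, the 3 CTH1 arrays in the middle and the 3 vector arrays right in each panel. The dashed line is the floor of 43.2. Each carried gene is above the floor only on the arrays of its own group, and the URA3 gene probe set lies between 2949 and 4237 on all arrays.

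The plasmid marker URA3 (orotidine-phosphate decarboxylase) had signals of 3131, 2949 and 3829 on the CTH2 arrays, against 2963, 4141 and 3259 on the CTH1 arrays, which overlap. The difference was -0.06 (SE 0.20, 95% interval -0.48 to 0.37). Another URA3 probe set, among the Affymetrix controls, had 4545, 3616 and 2466 on the CTH2 arrays, against 3456, 2437 and 3559 on the CTH1 arrays and 1958 to 4433 on the vector arrays, also with overlap (exact permutation p = 0.5). Genes within 2 positions of the chromosomal deletions were also measured. Beside CTH1, the adjacent NUM1 and GIR2 differed by -0.30 and -0.10, and the next genes KGD2 and ENT5 by -0.46 and -0.20. Beside TIS11, the adjacent RKM5 differed by 0.02, and the next genes PDC5 and NHA1 by 0.30 and -0.31. None was called, and none had separate groups. Without single arrays NUM1 lay between -0.46 and -0.16, KGD2 between -0.68 and -0.24, and PDC5 between 0.05, without the third CTH2 array, and 0.43. SLX4, adjacent to TIS11, was too dim to be tested. KGD2, ENT5 and NHA1 were added here after their values were seen.

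Across the genome the strains were close. The median difference of the 4537 genes was 0.01, and 51.5% of genes were above 0. Differences were under 0.5 in size for 87.4% of genes. For 3553 genes, 78.3%, the whole 95% interval lay between -1 and 1, so a difference beyond a doubling or a halving lay outside the interval for these genes. Differences over 1 in size were seen for 38 genes, 31 higher and 7 lower in the CTH2 arrays. The median half-width of the interval was 0.54, without adjustment for the number of genes, and smaller differences could not be resolved for a typical gene. A call after adjustment needed more, as TIS11 alone of those 38 genes was called.

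Pairs of arrays from different groups, CTH2 with CTH1, correlated at Pearson r of 0.901 to 0.964 across genes (9 pairs). Pairs within the CTH2 or CTH1 group correlated at 0.905 to 0.983 (6 pairs). These correlations run over genes, which are not independent replicates. The standard deviation of the log2 difference was 0.414 to 0.721 between groups and 0.299 to 0.702 within groups, so that some replicate pairs differed as widely as pairs across the groups. At an unadjusted limma p under 0.05 there were 339 genes (7.47%), 178 higher and 161 lower, where an even spread of p-values gives 227. All 3 CTH2 arrays lay above all 3 CTH1 arrays for 284 genes (6.26%) and below them for 326 genes (7.19%) (13.4% in both directions combined). Counts of separate groups below are to be read against those shares. Besides TIS11, the smallest limma adjusted p was 0.093. The count of calls was 2 without the third CTH2 array and 3 without the third CTH1 array.

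Array quality differed between the groups in some measures and bears on what follows. An 18S ribosomal RNA probe set had signals of 239, 287 and 286 on the CTH2 arrays, against 2162, 460.3 and 1911 on the CTH1 arrays and 454 to 993 on the vector arrays. The CTH2 arrays were all below the CTH1 arrays (exact two-sided permutation p = 0.1, the smallest that 3 against 3 allows). This held for 2 of 10 rRNA probe sets. The 3′ to 5′ signal ratio of SPT15, an Affymetrix measure of RNA integrity, was 2.8, 2.7 and 1.56 on the CTH2 arrays and 3.43, 3.23 and 3 on the CTH1 arrays (exact permutation p = 0.1). The vector arrays, at 4.7, 1.04 and 1.84, spanned both groups. For ACT1 the ratios overlapped (exact permutation p = 0.3).

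The third CTH1 array stood apart in short transcripts. Genes whose coding length did not exceed 400 nt (406 genes) had a median deviation 0.71 log2 units below that of genes longer than 900 nt (3008 genes) on that array, written as -0.71. On the other 8 arrays this measure lay between -0.02 and 0.21, and it was highest on the third CTH2 array. The part of these measures in the differences below was not tested beyond the values given without single arrays and with a correction for coding length.

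**Figure D2:**
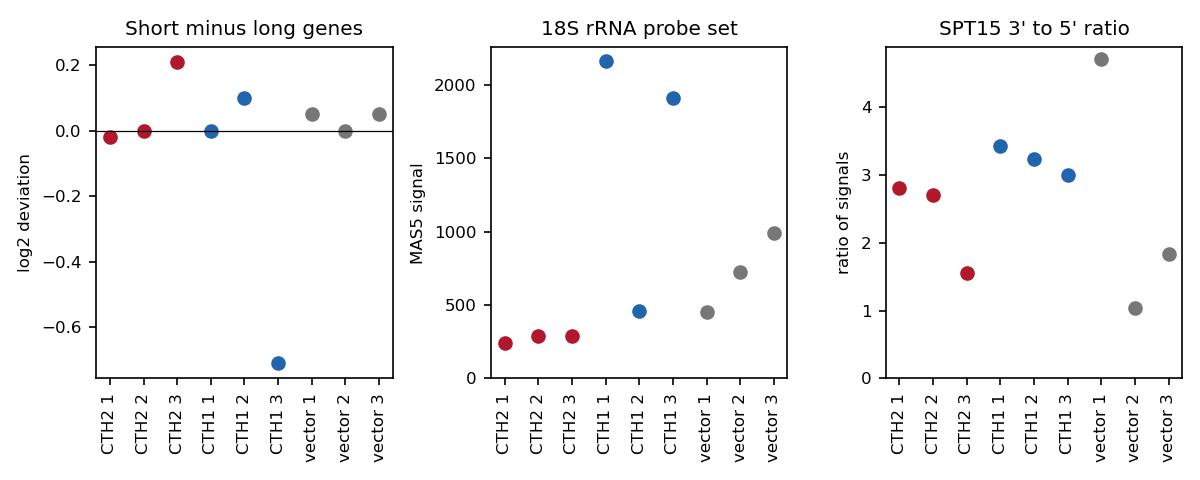
Technical measures on each array, with CTH2 arrays left, CTH1 arrays in the middle and vector arrays right. The left panel shows the median log2 deviation of genes of at most 400 nt minus that of genes over 900 nt, with the third CTH1 array at -0.71; the middle panel shows the signal of an 18S rRNA probe set, low on all 3 CTH2 arrays; the right panel shows the 3′ to 5′ signal ratio of SPT15.

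On the lower side PRM4, YKR104W, ATG32 and FIT1 were nearest to a call. None of the 12 genes with the smallest p on this side passed the test, and they are given as values. PRM4 (YPL156C), a pheromone-regulated membrane protein, had signals of 704, 710.4 and 781 on the CTH2 arrays, against 1685, 1417 and 1529 on the CTH1 arrays and 1471, 1382 and 1411 on the vector arrays. The CTH2 arrays were the low ones, at about the same level in all 3 cultures, and the CTH1 arrays overlapped the vector arrays. The difference was -1.07 (SE 0.17, 95% interval -1.45 to -0.70), with a limma adjusted p of 0.093 and a range of 0.0031 to 0.5 over the alternatives. PRM4 was called without a filter on dim genes, over all single-gene probe sets, with a floor at the 25th percentile, and with array weights. Among the other pheromone response genes, PRM5 differed by -0.96, with separate groups, and STE2 by -0.10. The median of the 19 pheromone response genes tested was 0.07, and -0.07 to 0.14 without single arrays.

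YKR104W, an open reading frame with no role given here, had signals of 167, 172 and 276 on the CTH2 arrays, against 479, 507 and 537 on the CTH1 arrays and 665, 599 and 489.5 on the vector arrays. Its groups were separate by a wide margin, at a difference of -1.35 (SE 0.24, limma adjusted p = 0.13). Without the third CTH2 array it was called.

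ATG32, which encodes the mitochondrial receptor of mitophagy, had signals of 245, 313 and 277 on the CTH2 arrays, against 555, 639 and 544 on the CTH1 arrays and 427, 478 and 449 on the vector arrays. Here the vector arrays lay between the groups, the CTH2 arrays being below them and the CTH1 arrays above. The difference was -1.06 (SE 0.19, limma adjusted p = 0.13). APE4, a vacuolar aminopeptidase delivered by the selective autophagy route to the vacuole, had 311, 360.0 and 254 on the CTH2 arrays and 625, 629 and 746 on the CTH1 arrays. The groups were separate, at -1.12 (SE 0.22, limma adjusted p = 0.14).

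FIT1, a cell-wall mannoprotein that retains iron bound to siderophores, had signals of 2191, 1921 and 1387 on the CTH2 arrays, against 3345, 4776 and 5885 on the CTH1 arrays and 4969, 5906 and 3828 on the vector arrays. The CTH1 and vector arrays overlapped and the CTH2 arrays were below both. The difference was -1.34 (SE 0.26, 95% interval -1.90 to -0.78, limma adjusted p = 0.14). WTM1, which anchors the small subunits of ribonucleotide reductase in the nucleus, had 1395, 1156 and 1070 on the CTH2 arrays and 2905, 1895 and 2331 on the CTH1 arrays, a difference of -0.97 with separate groups. The rest of the 12 ran from -1.05 to -0.81. They were TDA3, CAD1 (an AP-1-like transcription factor), KGD1 (a subunit of 2-oxoglutarate dehydrogenase), ECL1, PCA1 (a cadmium-exporting ATPase) and HMX1 (heme oxygenase). In all 12 the CTH2 and CTH1 arrays did not overlap, as a choice by smallest p favours.

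On the higher side the genes nearest to a call after TIS11 included SDD2, MIC10, GPH1 and PGM2, and none passed the test. GPH1, glycogen phosphorylase, had signals of 612, 622 and 462 on the CTH2 arrays, against 173, 97.6 and 343 on the CTH1 arrays and 165, 167 and 154 on the vector arrays. The CTH2 arrays were the high ones, and the CTH1 arrays scattered around the vector level. The difference was 1.64 (SE 0.36, 95% interval 0.86 to 2.42, limma adjusted p = 0.25). PGM2, the main phosphoglucomutase, had 2010, 1922 and 2386 on the CTH2 arrays and 479.8, 798 and 1365 on the CTH1 arrays, a difference of 1.38 (SE 0.33). Without the third CTH1 array both GPH1, at 2.11, and PGM2, at 1.76, were called.

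For several genes on the higher side the CTH1 arrays were the low ones and the CTH2 arrays lay near vector. MIC10, a core subunit of the mitochondrial cristae-organising complex, had signals of 2908, 2643 and 2413 on the CTH2 arrays, against 1476, 1451 and 1142 on the CTH1 arrays and 2909, 2805 and 2244 on the vector arrays. The CTH2 and vector arrays overlapped, and the CTH1 arrays lay below both. The difference was 0.97 (SE 0.19, limma adjusted p = 0.14), or 0.81 after correction for coding length. MIC10 is a short gene (294 nt), and the name of this probe set carries a suffix for possible cross-hybridisation. Its other probe set, without that suffix, differed by 1.01.

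SDD2 had signals of 1028, 999 and 1190 on the CTH2 arrays, against 371, 593 and 507 on the CTH1 arrays and 739, 957 and 916 on the vector arrays. It differed by 1.15 (SE 0.22, limma adjusted p = 0.14), and the CTH1 arrays were again the lowest of the series. Unlike for MIC10, the CTH2 arrays of SDD2 were all above the vector arrays. UNG1, uracil-DNA glycosylase, differed by 1.19, RNH201, the catalytic subunit of ribonuclease H2, by 1.00, and YPL264C by 1.21. The means of UNG1 and RNH201 were 0.28 and 0.20 against vector in the CTH2 group, and -0.91 and -0.80 in the CTH1 group. The signals of YPL264C were 410.0, 403 and 438 on the CTH2 arrays, against 259.8, 143 and 156 on the CTH1 arrays and 243, 417 and 462 on the vector arrays.

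The others on this side were BMT6 (an rRNA methyltransferase), ATR1 (a multidrug efflux pump), PTC6 (a protein phosphatase) and YDR034C-A, at 1.40, 1.07, 1.13 and 1.61. The 7 probe sets of YDR034C-A differed by between 0.00 and 1.61, so its value rests on the probe set chosen.

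**Figure D3:**
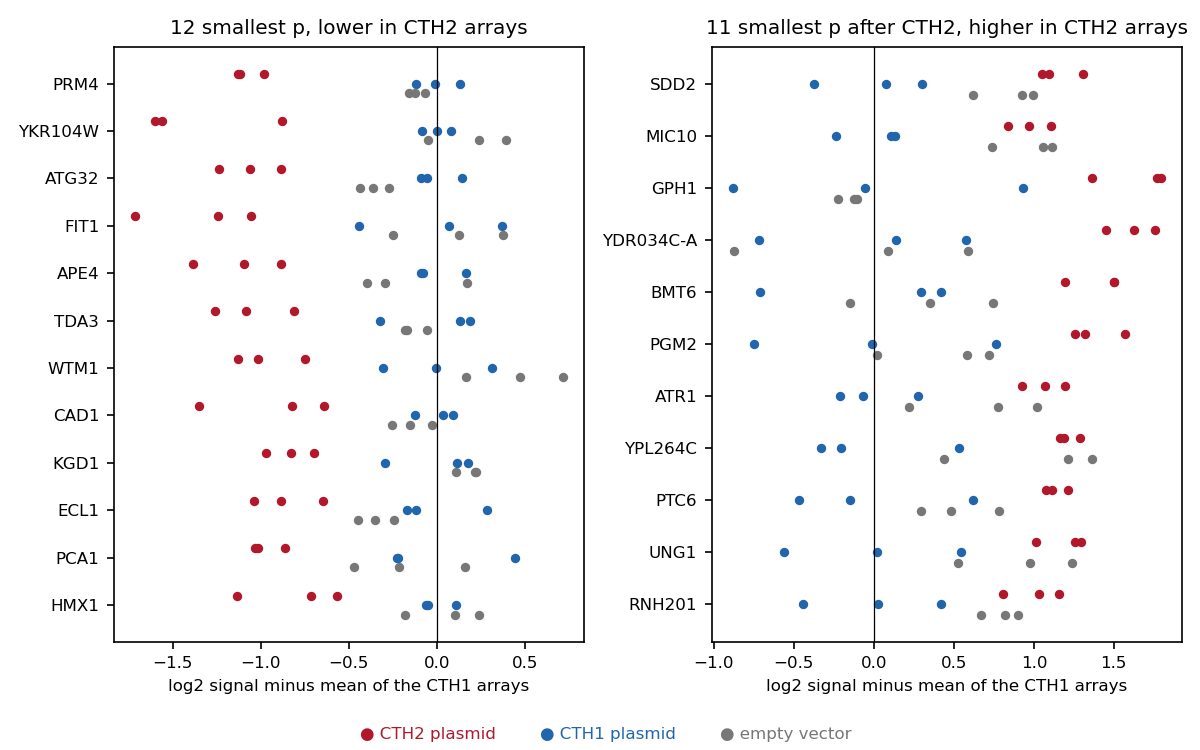
Log2 signal on each array minus the mean of the 3 CTH1 arrays, for the 12 genes with the smallest p on the lower side (left) and the 11 after TIS11 on the higher side (right). Red points are CTH2 arrays, blue points CTH1 arrays and grey points vector arrays; on the left the grey points mostly lie near the blue ones, while for SDD2, MIC10, UNG1 and RNH201 on the right they lie nearer to the red ones.

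Giving each array a weight by its scatter changed the count of calls most. With array weights 26 genes were called, 14 higher and 12 lower (0.573%). The lower ones were YKR104W, PRM4, WTM1, CAD1, HMX1, ATG32, APE4, SCS7, ATG34, FRA1, KGD1 and SOD2. The 14 higher ones included TIS11, GPH1, PGM2, SDD2, MIC10, UNG1, RNH201 and HXT6. The weights were 1.59, 2.56 and 0.543 for the CTH2 arrays and 2.28, 0.352 and 0.724 for the CTH1 arrays. These calls thus lean on the first and second CTH2 arrays and on the first CTH1 array.

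Against vector, 13 genes were called in the CTH2 group (0.287%), TIS11 among them. That count rests on single arrays: it was 1 without the first or the second CTH2 array or the second or the third vector array, 2 without the third CTH2 array, 6 without the first vector array and 26 without the second CTH1 array. The direct comparison shows how far the CTH1 group stood from the CTH2 group for the other 12. These genes were chosen by the same CTH2 arrays, which favours a CTH2 mean further from vector than the CTH1 mean. No list chosen by CTH1 against vector is described beside them. Both comparisons with vector use the same 3 vector arrays, and their values are given side by side only as a description.

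SDH2 encodes the subunit of succinate dehydrogenase that holds its iron-sulfur clusters, and its signals were 699, 612 and 429.6 on the CTH2 arrays, against 812, 639 and 709 on the CTH1 arrays and 1177, 1903 and 2132 on the vector arrays. The CTH2 and CTH1 arrays overlapped, and both groups were below all vector arrays. The direct difference was -0.33 (SE 0.26, 95% interval -0.90 to 0.23), beside -1.57 for CTH2 and -1.23 for CTH1 against vector. It was -0.13 without the third CTH2 array, the lowest of its group. The interval leaves room for a CTH2 signal almost a doubling below that of CTH1.

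ACO1, the iron-sulfur enzyme aconitase, had 2367, 2271 and 2862 on the CTH2 arrays, against 3693, 4860 and 4738 on the CTH1 arrays and 6384, 10371 and 5155 on the vector arrays. The 3 groups did not overlap, with the CTH1 arrays in the middle. The direct difference was -0.82 (SE 0.25, 95% interval -1.36 to -0.28, limma adjusted p = 0.45). HEM15, the ferrochelatase that inserts iron into heme, differed by -0.76 and COX6, a subunit of cytochrome c oxidase, by -0.78. Against vector their CTH2 means were at -1.27 and -1.21 and their CTH1 means, again in the middle, at -0.50 and -0.43.

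FIT1, PRM4 and YKR104W formed another pattern, in which the CTH2 mean was at -1.42, -0.96 and -1.54 against vector, while the CTH1 mean stayed near vector, at -0.09, 0.12 and -0.19. WTM1 was at -1.42 in the CTH2 group and -0.45 in the CTH1 group. Of the genes higher than vector, HXT6 and HXT7, high-affinity hexose transporters with nearly identical sequences whose probe sets cannot separate them, differed directly by 1.09 and 0.96. HPF1, a cell-wall mannoprotein, differed by 0.74 and RTC3 by 0.70. The CTH2 arrays were above the CTH1 arrays without overlap for all 4, and none passed the direct test.

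**Figure D4:**
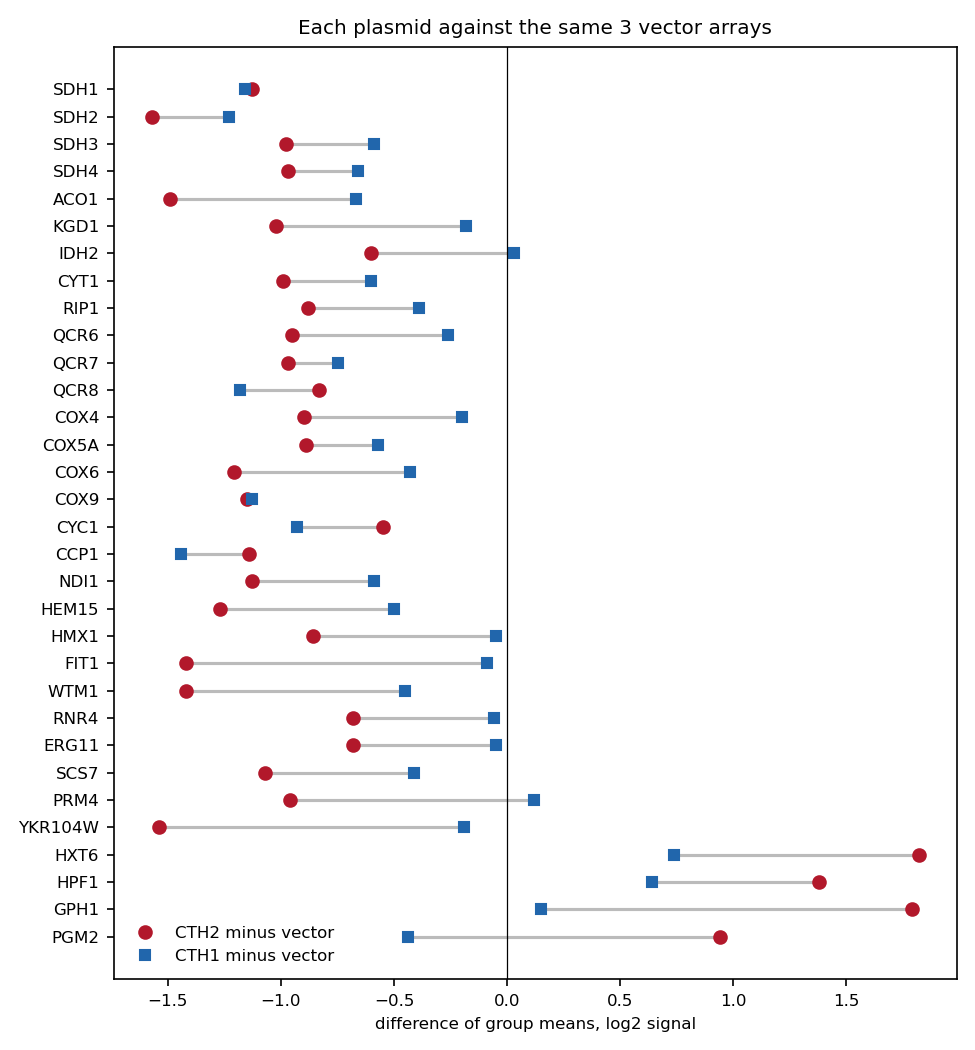
Difference of the group mean from the mean of the same 3 vector arrays, in log2 signal, for 32 genes described in the text or from the same lists. Red circles are CTH2 minus vector and blue squares CTH1 minus vector; the points of SDH1, SDH2 and COX9 lie close together and well left of 0, while for FIT1, YKR104W, PRM4, HMX1 and ERG11 the CTH1 square lies near 0.

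Gene lists for the processes these proteins are known to act on, and for others beside them, were described by counts and medians. The all-gene median was 0.01, and no member of any list other than TIS11 was called. Members were named mainly by the smallest direct p, which for lowered genes favours a CTH1 mean nearer to vector. Over all tested members, medians against vector for CTH2 and CTH1 were -0.91 and -0.36 in succinate dehydrogenase. They were -0.86 and -0.37 in cytochrome bc1, -0.77 and -0.38 in cytochrome c oxidase, and -0.55 and -0.06 in heme metabolism. For the oxygen-dependent lipid enzymes they were -0.42 and 0.01.

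In succinate dehydrogenase with its assembly factors, 7 of 9 tested genes were below 0, and the median was -0.31. No member had separate groups. SDH1, the flavoprotein subunit, had signals of 239, 198 and 314 on the CTH2 arrays, against 283, 237 and 208 on the CTH1 arrays and 365, 727 and 584 on the vector arrays. The CTH2 and CTH1 arrays overlapped, at a difference of 0.03 (95% interval -0.57 to 0.63), and both groups lay below vector. The membrane anchors SDH3 and SDH4 differed by -0.39 and -0.31. Leaving out single CTH1 arrays put SDH3 between -0.83 and -0.13, and SDH4 was at -0.17 without the second CTH1 array and -0.20 without the second CTH2 array. Without the third CTH2 array the list median was -0.15, and without the first or the second CTH1 array -0.20 or -0.16.

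Of 14 other TCA cycle genes 10 were below 0, at a median of -0.34, and 4 had the CTH2 arrays all below the CTH1 arrays. Without the third CTH2 array the median was -0.19. The separate genes were ACO1, KGD1, IDH2 and LSC1. KGD1 had signals of 892, 816 and 739 on the CTH2 arrays, against 1567, 1638 and 1180 on the CTH1 arrays and 1691, 1680 and 1563 on the vector arrays. The CTH1 arrays reached the vector range and the CTH2 arrays did not (difference -0.83, SE 0.19, limma adjusted p = 0.25). IDH2, a subunit of the NAD-dependent isocitrate dehydrogenase, had 5243, 4876 and 4609 on the CTH2 arrays and 8426, 7269 and 7131 on the CTH1 arrays. Its difference was -0.63, while IDH1, the partner subunit, differed by 0.13. IDH1 was at -0.21 without the second CTH1 array and at 0.47 without the third. LSC2, the partner of LSC1 in succinyl-CoA ligase, differed by -0.03.

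In the cytochrome bc1 complex 9 of 10 genes were below 0, at a median of -0.24, or -0.11 without the first CTH1 array, with 1 gene separate. That gene was QCR6, at -0.70. The heme subunit gene CYT1 differed by -0.39 and the iron-sulfur subunit gene RIP1 by -0.50, and the arrays of both overlapped. Without the first CTH1 array CYT1 differed by -0.21, and without the second by -0.66. RIP1 differed by -0.29 without the second CTH1 array and by -0.77 without the third. QCR8 was the exception in sign over all arrays, at 0.36. COR1 differed by -0.48 and QCR2 by -0.27, but by 0.06 and 0.09 without the third CTH2 array. The list median was -0.22 without that array.

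Of 8 cytochrome c oxidase genes 6 were below 0, at a median of -0.17, and COX6, COX4 and COX8 had separate groups. The median was -0.41 without the third CTH1 array, which stood apart in short transcripts, and -0.34 with the coding-length correction. It was -0.09 without the first CTH2 array, and -0.10 and -0.11 without the first and the second CTH1 array. COX4 had signals of 569, 639 and 594 on the CTH2 arrays, against 1063, 983 and 892 on the CTH1 arrays and 1075, 997 and 1314 on the vector arrays. Its CTH2 arrays were all low and its CTH1 arrays close to vector (difference -0.70, limma adjusted p = 0.39). COX9, by contrast, differed by -0.02, at -1.15 against vector in the CTH2 group and -1.13 in the CTH1 group. COX9 is a short gene, of 180 nt, and its direct difference was -0.46 without the third CTH1 array and 0.30 without the first.

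Cytochrome c, its peroxidase and the NADH dehydrogenases gave a median of 0.15 over 9 genes, and of 0.06 to 0.11 without single arrays. CYC1, cytochrome c, differed by 0.37 and CCP1, cytochrome c peroxidase, by 0.30, with overlapping arrays. Without single arrays CYC1 lay between 0.19 and 0.61 and CCP1 between 0.19 and 0.49. NDI1, the internal NADH dehydrogenase, had separate groups and differed by -0.55. Among the respiratory genes, SDH1 and COX9 thus had nearly equal means over all arrays, though COX9 did not without single CTH1 arrays. CYC1 and CCP1 had the lower mean with CTH1, and COX4, COX6 and NDI1 had the lower mean with CTH2.

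In heme metabolism 6 of 8 genes were below 0 (median -0.22). HMX1, which degrades heme and releases its iron, had signals of 2399, 1792 and 2656 on the CTH2 arrays, against 4249, 3808 and 3777 on the CTH1 arrays and 3474, 4653 and 4227 on the vector arrays. The CTH1 arrays were within the vector range and the CTH2 arrays below it, at -0.81 (SE 0.20, limma adjusted p = 0.3).

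Genes of iron uptake at the cell surface formed a list, and those of transport inside the cell, with regulators of Aft, formed another. Aft1 and Aft2 drive many of these genes but not all. Of 15 surface genes 12 were below 0, at a median of -0.25, and 4 had separate groups on the lower side. The median lay between -0.30 and -0.19 without single arrays. Apart from FIT1 the differences were at most 0.44 in size over all arrays. FRE6, FRE3 and FRE5 differed by -0.41, -0.40 and -0.30, FRE1 by -0.16 and FRE2 by 0.10. FRE3 was at -1.11 without the second CTH1 array and at 0.09 without the third. FET3, the multicopper oxidase of high-affinity uptake, had signals of 11869, 9305 and 13021 on the CTH2 arrays, against 14283, 12227 and 11006 on the CTH1 arrays, which overlap. It differed by -0.14 (95% interval -0.56 to 0.28), and its permease FTR1 by -0.31. The siderophore transporters ENB1, ARN1, ARN2 and SIT1 differed by -0.44, -0.25, -0.25 and 0.01. The mannoprotein genes FIT2 and FIT3 differed by -0.12 and -0.20, beside the -1.34 of FIT1. FIT2 was at 0.07 without the third CTH2 array, and SIT1 at -0.24 without the first CTH1 array.

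Among the intracellular iron genes and Aft regulators, leaving TIS11 aside, 14 of 18 were below 0, with a median of -0.28. That median lay between -0.46, without the second CTH2 array, and -0.24 under all alternatives. Of these genes 7 had the CTH2 arrays all below the CTH1 arrays. With TIS11 counted, 2 genes of the list had the CTH2 arrays all above. FRA1, a repressor of Aft activity, had signals of 385, 368 and 354 on the CTH2 arrays, against 723, 433 and 884 on the CTH1 arrays and 712, 586 and 515 on the vector arrays. The CTH2 values were tight and the CTH1 values spread, at a difference of -0.82 (SE 0.26, limma adjusted p = 0.45).

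SMF3, which exports iron from the vacuole, differed by -0.75, and VHT1, the biotin importer, by -0.69. FET5 and FTH1, the oxidase and permease of vacuolar iron export, differed by -0.63 and -0.49. MRS4, a mitochondrial iron carrier, differed by -0.61 and CCC1, the vacuolar iron importer, by -0.49. AFT1 itself differed by -0.23 with overlapping arrays. On the other side, the cobalt and zinc transporter COT1 differed by 0.35, but by -0.20 without the second CTH1 array. CCC1 was at -0.31 without the third CTH2 array.

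Of 24 iron-sulfur cluster assembly genes 17 were below 0, at a median of -0.15, with 1 separate on the lower side. The median was -0.05 without the third CTH2 array and -0.25 without the second. Of 18 cytosolic and nuclear iron-sulfur proteins 13 were below 0, at a median of -0.23, or -0.08 without the first CTH2 array and -0.13 without the third CTH1 array. RLI1, an essential ribosome-recycling factor, had signals of 603, 690.1 and 847 on the CTH2 arrays, against 1041, 1544 and 949.9 on the CTH1 arrays and 1360, 1756 and 1391 on the vector arrays. Its groups were separate, at -0.71, and the CTH1 mean lay between those of CTH2 and vector. ELP3, of the Elongator complex, differed by -0.65, while LEU1 differed by -0.54 and GLT1 by -0.20 with overlapping arrays. LEU1 was at -0.21 without the third CTH2 array. NTG2, a DNA repair glycosylase, differed by 0.80, and by 0.36 without the second CTH1 array.

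The oxygen-dependent enzymes of sterol, sphingolipid and fatty acid synthesis, which use iron or heme except for the flavoenzyme ERG1, had the lowest median of the lists, -0.43. Of 8 tested genes 7 were below 0 and 5 had the CTH2 arrays all below the CTH1 arrays. ERG11, lanosterol demethylase, had signals of 2949, 2980 and 3624 on the CTH2 arrays, against 4663, 5491 and 4646 on the CTH1 arrays and 5515, 4144 and 5753 on the vector arrays. The CTH1 arrays lay within the vector range and the CTH2 arrays below it (difference -0.63, SE 0.19, limma adjusted p = 0.45).

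SCS7, which hydroxylates sphingolipid fatty acids, had 919, 785 and 1146 on the CTH2 arrays, against 1894, 1307 and 1316 on the CTH1 arrays, a difference of -0.66. ERG1, OLE1 (the fatty acid desaturase) and SUR2 (sphinganine hydroxylase) differed by -0.56, -0.47 and -0.39. ERG5, a cytochrome P450, was the exception, at 0.16. Sterol enzymes that use no iron had a median of -0.10 over 18 genes, and of -0.16 to -0.04 without single arrays. The phosphate regulon also lay below 0, with 9 of 12 genes. Its median was -0.13, and -0.30 to -0.07 without single arrays.

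Ribonucleotide reductase makes deoxyribonucleotides with a diiron centre held by the small subunit Rnr2. Of 9 tested genes of the enzyme and its regulators 7 were below 0 (median -0.30), and WTM1, RNR4, RNR1 and RFX1 had separate groups. RNR4, which encodes the partner of Rnr2 that lacks the iron ligands, had signals of 2229, 2065 and 2099 on the CTH2 arrays, against 3436, 3287 and 3075 on the CTH1 arrays and 3426, 2746 and 4209 on the vector arrays. The CTH1 arrays lay inside the vector range and the CTH2 arrays below it, at -0.62 (SE 0.19, limma adjusted p = 0.45). RNR1, the large subunit, differed by -0.57. RNR2 differed by -0.30, and by -0.14 without the second CTH2 array. RNR3 was too dim to be tested.

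Glycogen and trehalose genes had a median of 0.26 over 16 genes, with 11 above 0. This was the highest median of the lists over all arrays but not without the third CTH2 array, where it was 0.10 beside 0.22 for glutamate and lysine synthesis. Those with the CTH2 arrays all above the CTH1 arrays were GPH1, PGM2, GSY2, TPS2 and GSY1. GSY2, the main glycogen synthase, had signals of 1264, 1032 and 1794 on the CTH2 arrays and 919, 927 and 817 on the CTH1 arrays (difference 0.58, SE 0.24, limma adjusted p = 0.58), and the difference was 0.37 without the third CTH2 array. TPS2 differed by 0.52, and by 0.30 without the second CTH1 array. GDB1, the debranching enzyme that works with GPH1, differed by 0.03.

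Oxidant defence genes gave a median of 0.20 over 21 genes, though 5 were separate on the lower side and 2 on the higher side. The median was 0.04 without the third CTH2 array, 0.13 without the first and 0.06 without the third CTH1 array, and 0.07 with the coding-length correction. Among these SOD2, the mitochondrial manganese superoxide dismutase, had 978, 883 and 1028 on the CTH2 arrays, against 1694, 1808 and 1309 on the CTH1 arrays and 1735, 1486 and 1565 on the vector arrays. The CTH1 arrays were at vector level and the CTH2 arrays below it, at -0.73 (SE 0.19, limma adjusted p = 0.36). The peroxiredoxins PRX1 and TSA1 differed by -0.55 and -0.50.

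Of 34 proteasome genes 26 were above 0, at a median of 0.14, and 6 had separate groups on the higher side. RPN13, a ubiquitin receptor of the proteasome, had signals of 2736, 2451 and 2876 on the CTH2 arrays, against 698, 1381 and 2267 on the CTH1 arrays. The CTH1 arrays spread widely, and the difference of 1.05 carried an SE of 0.38. It was 0.60 without the first CTH1 array, and the list median was then 0.09.

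Of 80 cytosolic ribosomal protein genes tested 51 were above 0, at a median of 0.09, and without the third CTH1 array the median was -0.06, and without the first 0.17. RPL39 differed by 1.14 over all arrays and by 0.52 without that array. RPS29A differed by 1.47, and by 1.48 without it, on a probe set also marked for possible cross-hybridisation. The mRNA decay factors, among them the partners of this protein family, had a median of -0.01 over 32 genes (-0.11 to 0.05 without single arrays), with PAN2 alone separate, at -0.43.

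**Figure D5:**
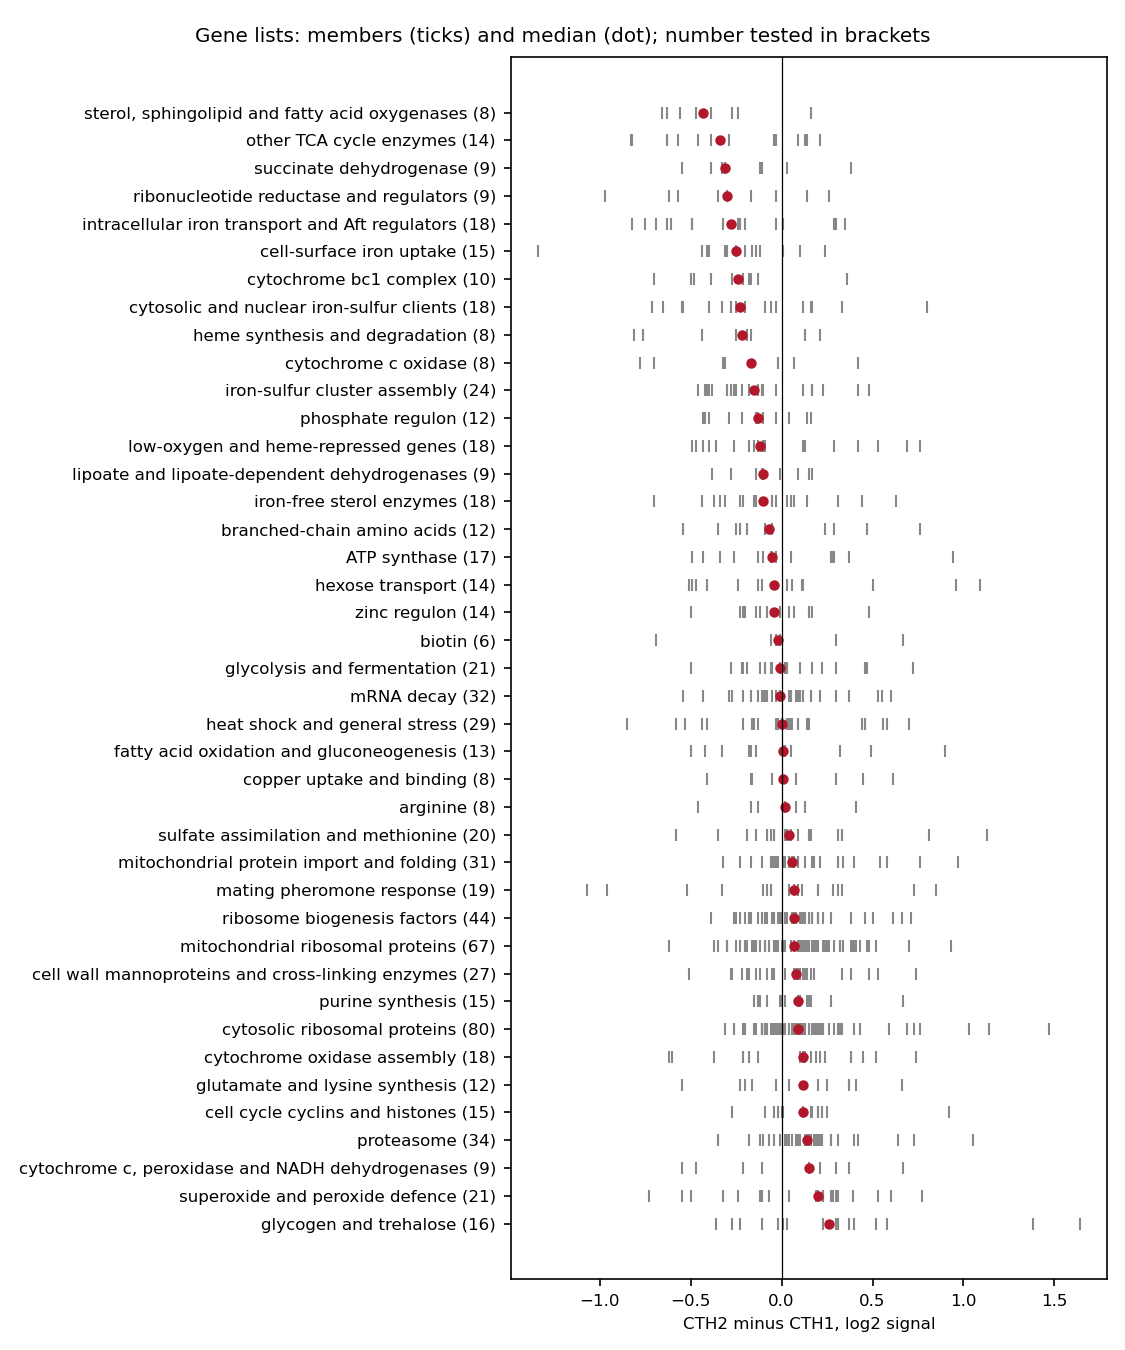
CTH2 minus CTH1 difference in log2 signal for the tested members of 41 gene lists (grey ticks) with the list median (red dot), ordered by the median. Lists of iron-using enzymes and iron transport lie mostly left of 0, down to a median of -0.43 for the lipid oxygenases. Some other lists do too, such as the phosphate regulon at -0.13. Glycogen and trehalose genes are highest over all arrays at 0.26. TIS11 is left out of the intracellular iron list.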

How the data were processed

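The deposited values are MAS5 signals, that is, intensity on a linear scale. The authors computed them with MAS5, as the submitters' processing notes state, without a version. Groups came from the sample titles and plasmids from the series design. Of 9335 probe sets, 6504 had 1 gene in the platform annotation (5656 genes, all matched to RefSeq), 328 had several and 2443 had none. Signals were floored at the 10th percentile (43.2) and log2-transformed, and each gene was represented by its brightest probe set. The filter kept genes averaging over the 25th percentile (98.4), 4537 in all, and 258 of these rest on probe sets marked for possible cross-hybridisation; 0.0882% of values were at the floor.

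The test was limma 3.58.1 in R 4.3.3 (lmFit, eBayes with trend) on all 9 arrays, two-sided, with the contrast CTH2 minus CTH1 and Benjamini-Hochberg adjustment over all genes tested. The procedure was also run on simulated data, with independent noise of the same size on every array. The real arrays differed in scatter, so that run does not show how the test performs on them. Genes named were both carried genes, the marker and neighbours, all called genes, the 12 with the smallest p each way, list members with the smallest p or completing a complex, and genes called for CTH2 against vector. Genes that array weights called, and some list members, were named after their values were seen. The groups, the 43 gene lists and the comparison were chosen with earlier results of these data known, so no list is independent evidence. Alternatives covered normalization, floor, filters, probe-set choice, array weights, coding length, the replicate number as a block and each array left out. Arrays carry no read depth, and their number limits the precision.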

Additional observations from a re-analysis of the deposited data

How the results depend on the processing

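For the 34 genes followed, all 743 values under 22 alternatives kept the sign of the reported difference. Of these values 25 passed the threshold where the reported value did not, and none lost a call. The genes followed include those with the smallest p, and the alternatives reuse the same arrays, which favours a stable sign. Other genes named above changed sign. Without CTH1 replicate 2, IDH1 went to -0.21 and COT1 to -0.20, and without CTH1 replicate 1 COX9 went to 0.30. The count of calls between CTH2 and CTH1, reported as 1, was 26 with array weights, 3 without a filter on dim genes, 3 over all probe sets without it, and 2 with a floor at the 25th percentile. PRM4 was called in each of these settings, and CTH1 in both settings without the dim filter. Leaving out 1 of the 9 arrays gave 1 to 3 calls, with 2 without CTH2 replicate 3 (YKR104W added) and 3 without CTH1 replicate 3 (GPH1 and PGM2 added). The count of CTH2 against vector, reported as 13, was 72 with array weights, 27 with a coding-length correction, 2 without the dim filter, 2 over all probe sets, 1 with the floor at the 25th percentile, 1 with the replicate block, and 1 to 26 without single arrays: 1 without CTH2 replicate 1 or 2, or without vector replicate 2 or 3, 2 without CTH2 replicate 3, 6 without vector replicate 1 and 26 without CTH1 replicate 2. The cause was not tested. Arrays of CTH2 and CTH1 with the same replicate number had deviations from their group means that correlated across genes at 0.11, -0.26 and -0.58. Whether equal numbers mark cultures handled together is not stated in the labels. These correlations cannot decide it, because the deviations within a group are tied to each other. With the replicate block the direct comparison still had 1 call. Of 903 list medians under alternatives, 30 moved by more than the spread of replicates; the cytochrome oxidase assembly genes went to -0.12 without CTH1 replicate 3 and -0.18 without short genes, against 0.12 as reported. The all-gene median lay between -0.05 (median scaling) and 0.02.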

Other observations

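Probe sets with no gene or with several genes in the annotation were fitted in the same way after the data were seen. Of 968 tested, none was called by limma, 127 had an unadjusted p under 0.05, and the smallest adjusted p was 0.058. That probe set, which matches several genes and is not named for that reason, had signals of 233, 321 and 322 on the CTH2 arrays, against 811, 942 and 661 on the CTH1 arrays and 755, 856 and 744 on the vector arrays, a difference of -1.46.

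Deviations from the group mean also correlated between arrays with different numbers, at 0.54 across genes for CTH2 replicate 3 and CTH1 replicate 2 and at 0.51 for CTH2 replicate 1 and CTH1 replicate 3. With CTH2 replicate 3 and CTH1 replicate 2 left out together, an alternative chosen after seeing these values, TIS11 remained the only gene called.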
